A study of Mus musculus with 6 samples.

Results

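The Reg genes and the serum amyloid A genes are 2 families of secreted defence proteins of the mouse gut. They were followed here through Reg1, Reg3a, Reg3b, Reg3g, Reg4, Saa1, Saa2 and Saa3, matched by symbol in a table of 21397 genes. A row was found for 6 of the 8, and Saa1 and Saa2 were not analysed here. The genes were chosen by these FPKM values, on the fall of Reg3b, which was the largest on the log2(FPKM + 1) scale, so their own differences between the groups are given as a description and without a test. RNA was sequenced from organoids, which are epithelial buds grown in culture from crypts of the small intestine. The crypts came from adult Fpr2f/f mice, in which the Fpr2 gene carries loxP sites and no Cre recombinase acts, so both groups shared this genotype. One group of 3 libraries received MMK-1, a synthetic peptide agonist of formyl peptide receptor 2 (FPR2), for 5 days, and the other received 0.1% DMSO as vehicle for the same time. The protocol gives MMK-1 at 1 μM, while the treatment label of the samples says 1 mM. Per a figure legend of the study, each sample held the organoids of 3 mice, so a library is not an animal.

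Reg proteins are small C-type lectins. Reg3b and Reg3g are secreted by enterocytes and Paneth cells, bind bacterial cell walls and are known to be induced through interleukin-22 and STAT3 and through microbial signals. Reg3a is another secreted Reg3 lectin, Reg1 is known as a growth factor of regenerating tissue, and Reg4 is made by enteroendocrine and other secretory cells. Serum amyloid A proteins are acute-phase apolipoproteins that bind retinol and lipids, and FPR2 is a known receptor for them.

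The members sit at 3 places in the genome (GRCm38, GENCODE vM21 annotation). Reg3b (chr6:78370657-78373466, plus strand), Reg3d (minus), Reg3a (plus), Reg2 (plus), Reg1 (plus) and Reg3g (chr6:78466269-78468872, minus strand) follow each other in this order and span 98.2 kb of chromosome 6. Reg4 lies apart at chr3:98222156-98236748 on the plus strand, and Saa3 at chr7:46711998-46715700 on the minus strand. The RefSeq promoters of Reg3b, Reg3g and Reg3a, the members of the Reg3 group, and of Reg4, the member that was higher, are printed to show what they share and where they differ. Each is the 250 bases before the RefSeq start, 5′ to 3′ on the gene's strand, on GRCm38.p6. They lie at chr6:78370635-78370884 (Reg3b, plus), chr6:78468875-78469124 (Reg3g, minus), chr6:78380459-78380708 (Reg3a, plus) and chr3:98221906-98222155 (Reg4, plus). The RefSeq start of Reg3b lies inside the GENCODE gene. Capitals mark matches to TTCNNNGAA, the letters of a STAT site, and to TATAAA on either strand.
Reg3b: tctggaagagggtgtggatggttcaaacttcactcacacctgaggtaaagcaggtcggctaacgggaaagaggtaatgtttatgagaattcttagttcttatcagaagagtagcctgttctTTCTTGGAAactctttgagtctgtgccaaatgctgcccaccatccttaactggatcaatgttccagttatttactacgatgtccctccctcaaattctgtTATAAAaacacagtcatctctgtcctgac
Reg3g: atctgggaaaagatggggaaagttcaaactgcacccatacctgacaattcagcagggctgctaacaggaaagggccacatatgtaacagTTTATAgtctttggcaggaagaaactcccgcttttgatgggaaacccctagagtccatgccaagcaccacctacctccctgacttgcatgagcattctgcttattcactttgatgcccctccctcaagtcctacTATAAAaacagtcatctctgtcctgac
Reg3a: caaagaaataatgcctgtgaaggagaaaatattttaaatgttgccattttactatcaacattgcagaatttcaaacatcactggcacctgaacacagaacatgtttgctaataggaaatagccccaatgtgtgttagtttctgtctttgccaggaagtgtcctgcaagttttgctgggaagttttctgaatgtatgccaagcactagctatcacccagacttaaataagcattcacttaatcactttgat
Reg4: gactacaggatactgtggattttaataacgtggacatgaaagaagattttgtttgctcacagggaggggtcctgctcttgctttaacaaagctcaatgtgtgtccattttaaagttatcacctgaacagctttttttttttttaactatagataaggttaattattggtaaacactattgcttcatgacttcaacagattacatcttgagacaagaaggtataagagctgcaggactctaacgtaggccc

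The Reg3b and Reg3g promoters were alike, with 68.4% identity in a global alignment, whereas Reg3b and Reg3a gave 45.1% and Reg3g and Reg3a 47.5%. TATAAA stood at −29 in Reg3b and at −27 in Reg3g, counted from the start, and also at −30 in Reg1 and in Reg2. In Reg3g the letters occurred again on the other strand at −161. The Reg3a and Reg4 windows held no TATAAA, which 12.4% of 32841 mouse promoters of the same length hold. A match to TTCNNNGAA was present in Reg3b at −129 to −121 and in Reg3d at −238 to −230, against 7.02% of all promoters. Reg3g held a loose NF-kB motif (3 G, any 5 bases and 2 C) at −123 to −114, read on both strands, and 45.8% of promoters hold it. The letters AGATAA, known for factors of the GATA family, stood in Reg4 at −101 to −96, and in Saa3 on the other strand at −134 to −129, against 9.99% of promoters. The C/EBP letters TTGCGCAA were in none of these windows and in 0.164% of all. A match of letters is not a bound site.

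The coding sequences of Reg3a, Reg3b and Reg3g are similar but can be told apart by reads of 150 bases. Reg3b and Reg3g were 75.9% identical, Reg3a and Reg3b 73.6%, and Reg3a and Reg3g 73.3%. Reg4 was more distant, at 50.1% to 52.4% from these 3 genes. None of the 734 windows of 50 bases in the longest Reg3b transcript occurred in a transcript of another gene, and the same held for Reg3a, Reg3g and Reg4. For Reg1, 3.74% of such windows occurred elsewhere, and for Saa3 1.78%, while no window of 150 bases did so for any listed gene.

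The libraries held 35512739 to 37537463 fragments, of which 99.7% lay on listed genes. MMK-1 replicate 3 stood apart from the other MMK-1 libraries, with a median absolute log2 difference of 0.10 and 0.11 to them against 0.05 between those 2, and 0.29 to 0.31 between groups. Every listed gene below is therefore given in each library, and the 4 that were lower stayed lower when this library was left out. Of 12 enterocyte markers 11 were lower with MMK-1, among them the aminopeptidase Anpep (log2 fold change −2.84). The fatty acid-binding protein Fabp1 was higher by 0.17, a call that was lost under upper-quartile and median-ratio scaling. Of 8 Paneth cell markers tested 7 were higher, with Lyz1 at 1.87, and all 5 stem cell markers were higher, with Olfm4 at 5.02 (limma, adjusted p no greater than 0.05). In the same fit 48.5% of all genes tested were called higher and 24.7% lower. The summed FPKM of the 12 enterocyte markers was 10129 to 10232 in the controls and 5557 to 5977 with MMK-1. The part of these marker shifts in the values of the Reg genes was not tested, and in bulk RNA fewer cells of a type cannot be told apart from less RNA per cell. The immune genes Ptprc and Cd3e and the stromal genes Col1a1 and Pdgfra had means of at most 0.0526 FPKM in both groups, so defining markers of those cells were near 0. Cd68 and Itgam, 2 other markers of the immune list, had mean FPKM of 3.17 and 2.36 in the controls and were lower with MMK-1. The 8 immune markers with a row summed to 6.19 to 6.74 FPKM in the controls and 2.46 to 3.30 FPKM with MMK-1.

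Reg3b went from one of the higher members to a low level. FPKM, the fragments on a gene scaled by gene length and by the library total, was 97.4, 105.7 and 111.0 in the 3 controls, and 2.15, 2.27 and 2.13 after MMK-1. All control libraries were far above all MMK-1 libraries. The mean was 104.7 ± 6.84 FPKM (SD, n = 3) in controls and 2.18 ± 0.078 FPKM (SD, n = 3) with MMK-1, 47.9-fold lower, so that 2.09% of the control level was left. In fragments this was 2770, 3011 and 3150 against 58, 62 and 60. The fitted log2 fold change was −5.05 (SE 0.055) on log2(FPKM + 1), a scale that understates the fall of a gene this low, and the plain log2 ratio of the means was −5.58.

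Reg3a was the highest member in the controls and stayed the highest of the Reg3 genes with MMK-1. It had 171.4, 163.6 and 181.6 FPKM in controls, and 17.5, 21.2 and 21.1 FPKM after MMK-1. The groups did not overlap, and the mean fell from 172 ± 9.01 to 19.9 ± 2.08 FPKM (SD, n = 3 each), which is 8.64-fold lower. The fitted log2 fold change was −3.05 (SE 0.074), and 11.6% of the control level was left.

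Reg3g, the closest relative of Reg3b in coding sequence and in promoter, was lower by a smaller factor. It had 47.0, 48.9 and 47.9 FPKM in the controls and 9.22, 9.87 and 9.19 FPKM with MMK-1. The libraries of each group lay close together and far from the other group. The means were 47.9 ± 0.951 and 9.43 ± 0.381 FPKM (SD, n = 3 each), 5.09-fold lower, with a log2 fold change of −2.23 (SE 0.044).

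Reg1 was low throughout and lower with MMK-1. The control libraries had 2.29, 2.32 and 2.98 FPKM from 66, 67 and 86 fragments, and the MMK-1 libraries 0.621, 0.361 and 0.175 FPKM from 17, 10 and 5 fragments. Reg1 passed the filter of 1 FPKM only through the controls. The groups did not overlap, although the MMK-1 libraries differed among themselves by a coefficient of variation of 58.1%. The ratio of the means was 6.56, while the fitted log2 fold change was −1.36 (SE 0.12) with a pseudocount of 1 and −2.82 (SE 0.42) when the fragments themselves were fitted.

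Reg4 was the only one of the 5 members past the filter that was higher. It had 26.4, 28.2 and 29.9 FPKM in the controls and 58.1, 59.4 and 64.5 FPKM with MMK-1. The lowest MMK-1 library was above the highest control library. The means were 28.2 ± 1.76 and 60.7 ± 3.38 FPKM (SD, n = 3 each), 2.15-fold higher, with a log2 fold change of 1.08 (SE 0.058) that became 0.92 under upper-quartile scaling. Of 10 enteroendocrine markers, cells in which Reg4 is known, 7 were higher with MMK-1 and none was lower, which became 5 higher and 1 lower under that scaling. Of 9 goblet cell markers 7 were higher and 2 were lower, and under that scaling 4 and 2. Beside these counts, 48.5% of all genes tested were called higher and 24.7% lower, and under that scaling 3659 and 3906 of 10540 genes.

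Saa3 was at the edge of detection. No fragment was found in any control library. A floor of 3 fragments over the group would be 0.0506 FPKM, and the exact 95% Poisson interval of the controls reached 0.0622 FPKM. The MMK-1 libraries held 3, 1 and 1 fragments, 0.0872 FPKM over the group with an exact 95% Poisson interval of 0.0283 to 0.204 FPKM that covers counting error only. Saa3 did not pass the filter of a mean of 1 FPKM, and with so few fragments a difference between the groups was not detectable at this depth. Its relative Saa4 was not analysed here.

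**Figure D1:**
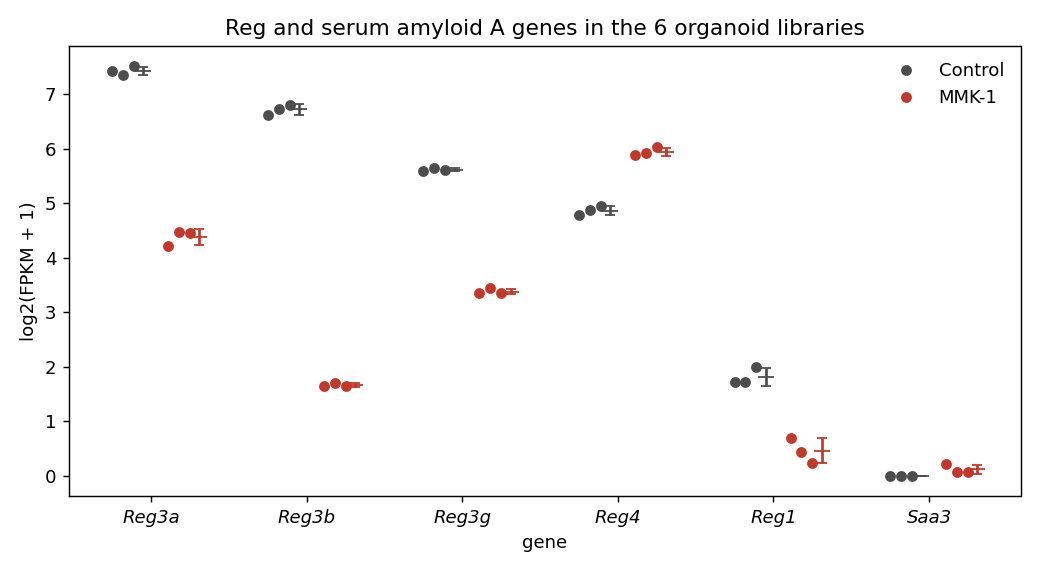
Level of each member, as log2(FPKM + 1) on the vertical axis, in the 3 control and the 3 MMK-1 libraries. Points are libraries and the bar beside them is the mean with its SD. Reg3a, Reg3b, Reg3g and Reg1 lie lower with MMK-1, Reg4 lies higher, and Saa3 is near 0 in both groups.

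Among the 5 members past the filter, 4 were lower and 1 was higher with MMK-1, and the groups of all 5 did not overlap, as for 26.3% of the 10551 genes tested in the lower and 50.5% in the higher direction. Nothing is read from this count, because the contrast chose the members, and no p is given for them. Over all genes limma called 73.2% at an adjusted p no greater than 0.05, 48.5% higher and 24.7% lower. That balance rests on the scaling, since the 5118 genes higher and 2606 lower became 3659 and 3906 under upper-quartile scaling, and 3777 and 3830 under median-ratio scaling. With a fold of at least 2 besides, 3.39% of genes were called higher and 3.65% lower, or 358 and 385 genes. At that fold and an unadjusted p of at most 0.05 (limma) the numbers were also 358 and 385. They became 223 and 490 under upper-quartile scaling. Ranked by the fitted change on log2(FPKM + 1) from the most lowered of the 10551 genes, Reg3b stood at 1, Reg3a at 7, Reg3g at 45 and Reg1 at 194, and Reg4 stood at 267 from the most raised. The first place of Reg3b depends on this scale, since the plain ratio of means was larger for the sarcosine dehydrogenase Sardh, at 49.9-fold against 47.9-fold.

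The order of levels differed between the groups. In the controls it ran from Reg3a over Reg3b, Reg3g, Reg4 and Reg1 to Saa3, and with MMK-1 it ran from Reg4 over Reg3a, Reg3g, Reg3b and Reg1 to Saa3. No neighbours in the control order overlapped. With MMK-1 the lowest Reg1 library and the highest Saa3 library held 5 and 3 fragments, a gap within counting error.

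The fall was unequal among the Reg3 genes. Reg3b reached 0.568, 0.646 and 0.611 of the Reg3a level in the 3 controls and 0.123, 0.107 and 0.101 with MMK-1. Against Reg3g it stood at 2.18 ± 0.126 in the controls and at 0.232 ± 0.00154 with MMK-1 (SD, n = 3 each), so the order of these 2 genes turned in every library. The ratio of Reg4 to Reg3a went from 0.164 ± 0.00926 to 3.06 ± 0.256. The summed FPKM of Reg3a, Reg3b and Reg3g was 325 ± 13.6 in the controls and 31.5 ± 2.33 with MMK-1, 10.3-fold lower. In the controls this sum was made up of 53.0% Reg3a, 32.2% Reg3b and 14.8% Reg3g, and with MMK-1 of 63.1%, 6.95% and 29.96%. Together these 3 genes took 254 to 273 of every 1000000 fragments in the controls and 23.4 to 27.1 with MMK-1.

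**Figure D2:**
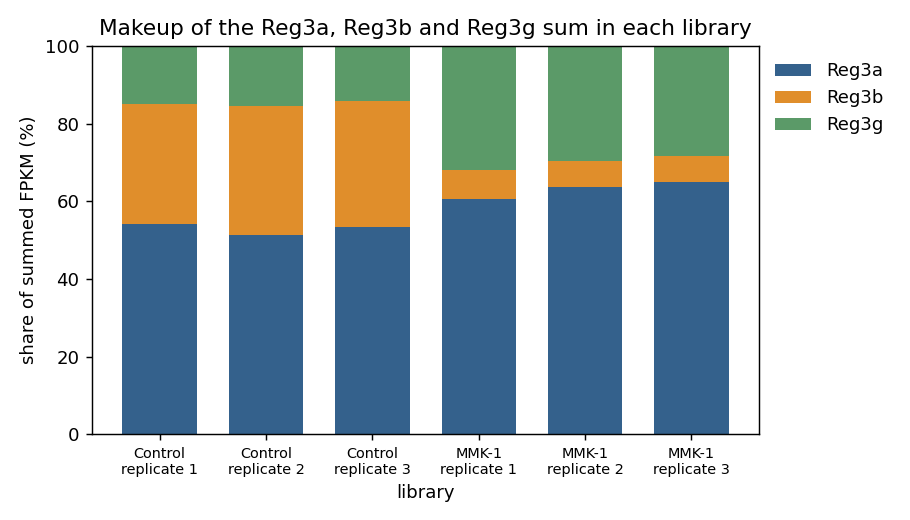
Share of the summed FPKM of Reg3a, Reg3b and Reg3g in percent (vertical axis) that each gene held in each of the 6 libraries (horizontal axis). Reg3b takes 30.8% to 33.2% of the sum in the controls, and 6.57% to 7.45% after MMK-1.

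The other Reg genes of chromosome 6 were not listed as members. Reg3d, which lies between Reg3b and Reg3a on the opposite strand, had 1.60, 2.28 and 2.22 FPKM in the controls from 47, 67 and 65 fragments. With MMK-1 it had 3, 2 and 0 fragments, and its log2 fold change was −1.51 (SE 0.098) with a pseudocount of 1 and −5.15 (SE 0.72) when the fragments were fitted with limma-voom. Reg3d passed the filter of 1 FPKM only through the controls and dropped out when any one of the 3 controls was left out, so no call is given. In the limma fit with no filter its adjusted p was 0.00013. Its FPKM lay just under that of Reg1 in the controls. Reg2 was near 0, with 1 fragment in a single MMK-1 library and none elsewhere. The only other protein-coding gene within 1000000 bases of the cluster, Ctnna2, which encodes an alpha-catenin of neurons, had at most 0.0126 FPKM in any library. The 5 Reg genes of the cluster with signal lay from 0 to 98.2 kb from the start of Reg3b, and Reg3g, at the far end, was lower by less than Reg3b and Reg3a at the near end.

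**Figure D3:**
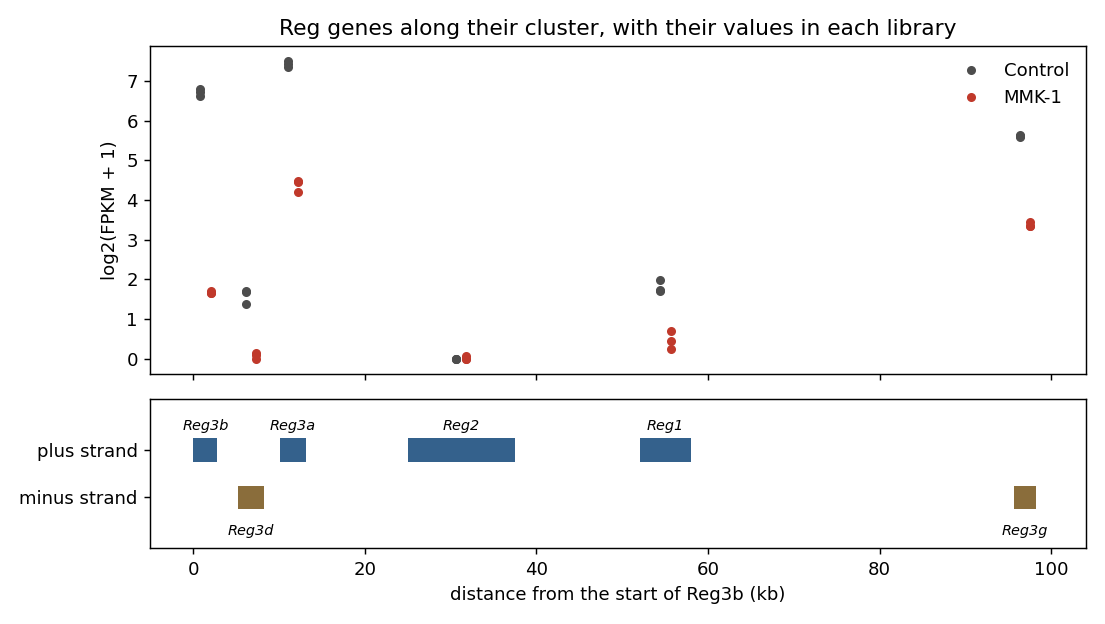
The 6 Reg genes of chromosome 6 by distance in kb from the start of Reg3b (horizontal axis), with the level in each library as log2(FPKM + 1) in the upper panel (points offset sideways by group) and gene bodies by strand in the lower panel. Reg3b, Reg3d, Reg3a, Reg1 and Reg3g are lower in the 3 MMK-1 libraries, and Reg2 is near 0.

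The genes whose profile over the 6 libraries was most like that of Reg3b were sought by the Euclidean distance between log2(FPKM + 1) values, each taken relative to its control mean. The nearest of the tested genes outside the list were Clec2h, a C-type lectin-like receptor gene (distance 2.03), the peptide transporter Slc15a1 (2.80), the metallothionein Mt4 (3.11), the sarcosine dehydrogenase Sardh (3.18) and the calcium-binding protein S100g (3.43). Clec2h fell from 243 ± 8.25 to 15.5 ± 0.918 FPKM. Reg3a itself had a distance of 3.47 from Reg3b, Reg3g one of 4.89, Reg1 of 6.41 and Reg4 of 10.6. These distances largely reflect the size of the fall over 2 groups of 3 libraries and say nothing of shared control. The same search for serum amyloid A was not informative because Saa3 held 5 fragments.

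The tested genes of the list of cytokine receptors and STAT3 signalling, a route known to induce Reg3 genes, had log2 fold changes between −0.81 and 0.28. Of 23 cytokine receptor and STAT3 genes 15 passed the filter, 9 were lower, 2 were higher and 4 were not called, with a median log2 fold change of −0.22 against 0.13 over all genes tested. The receptor for interleukin-22 was represented by Il22ra1, with 8.47, 8.48 and 7.98 FPKM in the controls and 7.32, 7.57 and 7.68 FPKM with MMK-1. Its log2 fold change was −0.13 (SE 0.047, adjusted p = 0.035), and the call was lost in 5 of 12 alternative analyses, with adjusted p from 0.071 to 0.12. Its partner chain Il10rb fell by 0.72 on the log2 scale (adjusted p = 9.5e-07). Of the interleukin-17 receptor chains, Il17ra fell by 0.54 (adjusted p = 0.00015) and Il17rc by 0.41 (adjusted p = 0.00075), while Il17re was under the filter. For interleukin-6, the signalling chain Il6st gave −0.02 (SE 0.061, adjusted p = 0.74), and Il6ra had means of 0.0949 and 0.152 FPKM.

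Stat3, the transcription factor through which interleukin-22 and interleukin-6 are known to signal, had means of 17.1 ± 0.444 and 16.6 ± 0.761 FPKM (SD, n = 3 each) and a log2 fold change of −0.04 (adjusted p = 0.49). Under upper-quartile scaling it was −0.19 with an adjusted p of 0.0037. Socs3, an inhibitor that STAT3 is known to induce, gave 0.10 (adjusted p = 0.17), and its direction turned to −0.04 under that scaling. The largest falls of the list were those of Il11ra1 (−0.81, adjusted p = 1.5e-05), Il10rb and Il17ra, and the largest rises those of the phosphatase Ptpn11 (0.28, adjusted p = 0.0023) and the kinase Jak1 (0.23, adjusted p = 0.00082). Both rises were no longer called under upper-quartile scaling, which left 10 genes lower and none higher, and both stayed called under median-ratio scaling (adjusted p = 0.042 each), which gave 10 lower and 2 higher.

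Of 21 Toll-like receptor, NF-kB and acute-phase regulator genes 18 were tested, and 7 were higher, 4 lower and 7 not called, with a median of 0.10. Among all genes tested 48.5% were higher and 24.7% lower, with a median of 0.13. Cebpb, a transcription factor of acute-phase genes, was higher by 0.71 (adjusted p = 3.2e-06), the adaptor Traf6 by 0.58 (adjusted p = 7.1e-06) and the NF-kB inhibitor Nfkbia by 0.50 (adjusted p = 0.00023). The flagellin receptor Tlr5 fell by 0.39 (adjusted p = 0.00024), Cebpd by 0.26 (adjusted p = 0.011) and the adaptor Ticam1 by 0.21 (adjusted p = 0.0023). With limma-voom Tlr5 was at −0.61 and Cebpd at −0.40. Upper-quartile scaling turned the balance of this list to 4 higher and 8 lower, and that of all genes to 3659 higher and 3906 lower.

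Other inducible defence genes of the epithelium went in both directions. Of 27 named 25 had a row and 14 were tested, of which 8 were lower, 5 higher and 1 not called. The shares over all genes tested were 24.7% lower and 48.5% higher. The polymeric immunoglobulin receptor Pigr fell from 820 ± 18.0 to 400.5 ± 15.2 FPKM (log2 fold change −1.03, adjusted p = 1.2e-07), and the lectin Zg16 of goblet cells fell from 330.4 ± 5.45 to 106 ± 5.13 FPKM (−1.63, adjusted p = 1.5e-08). The largest fall of the list was that of S100g (−3.08, adjusted p = 3.7e-08), which encodes an intestinal calcium-binding protein and is not a defence gene by that role. Ang4, an antimicrobial ribonuclease of Paneth cells, was higher by 1.54 (adjusted p = 1.1e-08), the nitric oxide synthase Nos2 by 0.98 (adjusted p = 3.2e-06) and the chemokine Ccl28 by 0.32 (adjusted p = 0.0013). For Nos2 limma-voom gave 1.90. Nos2 passed the filter of 1 FPKM only through the MMK-1 libraries, and with no filter its adjusted p was 0.00012. Lcn2, S100a8, S100a9, Cxcl1, Hp and Lbp, which are induced in inflamed epithelium or acute-phase liver, had means of at most 0.0978 FPKM in both groups.

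Among 11 genes for receptors and partners of the Reg and serum amyloid A proteins, 10 had a row and 9 were tested, with 4 higher, 4 lower and 1 not called. The shares over all genes tested were 48.5% higher and 24.7% lower. The scavenger receptors Cd36 (−1.18, adjusted p = 6.8e-07) and Scarb1 (−0.72, adjusted p = 2.8e-06), which bind serum amyloid A, were lower. With limma-voom on fragments, Cd36 was at −2.17. It passed the filter only through the controls, and with no filter its adjusted p was 4.5e-05. Ager, the receptor for advanced glycation end products, was −0.20 (adjusted p = 0.035), and that call was lost in 6 of 12 alternatives. The endocytic receptor Lrp1 was higher by 1.44 (adjusted p = 8.3e-08), the retinoic acid receptor Rarg by 0.60 (adjusted p = 3.9e-05) and Egfr by 0.47 (adjusted p = 0.00015). The limma-voom values of Rarg and Egfr were larger, at 1.09 and 0.93. Both genes passed the filter only through the MMK-1 libraries, and with no filter their adjusted p were 0.00045 and 0.00061. Egfr fell under the filter without MMK-1 replicate 2.

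**Figure D4:**
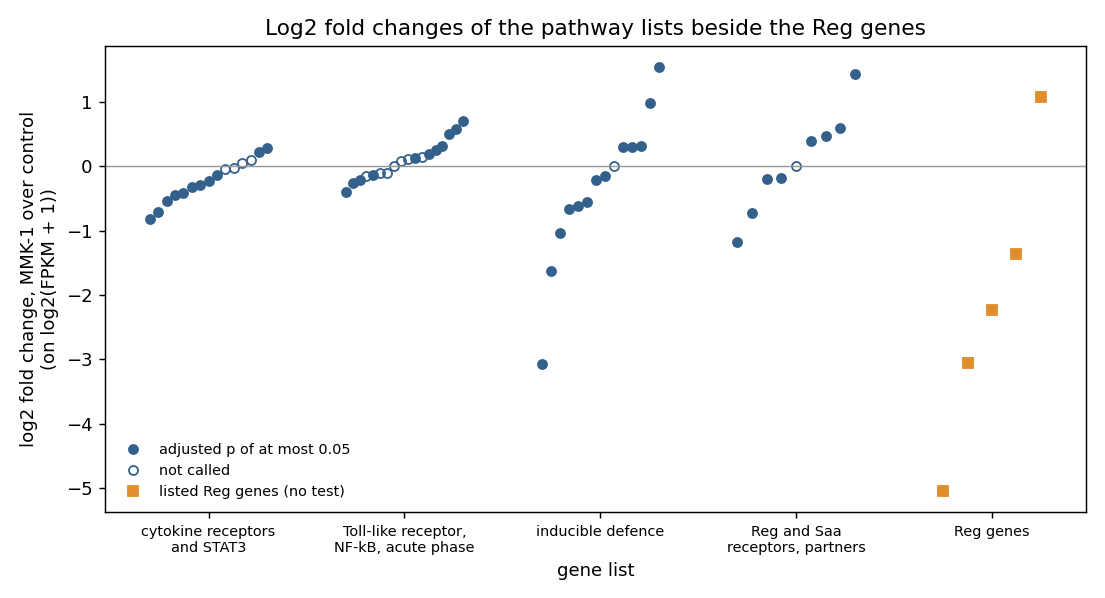
Log2 fold change with MMK-1 on log2(FPKM + 1) (vertical axis) of each tested gene in 4 lists of signalling and defence genes and of the 5 Reg members past the filter. Filled circles have an adjusted p of at most 0.05, open circles do not, and squares are the members, for which no test is given. Most pathway genes lie between −1 and 1, and the lowest of them, S100g at −3.08, is above Reg3b at −5.05.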

How the data were processed

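RNA-seq was analysed from 3 MMK-1 and 3 control libraries of mouse organoids. The authors deposited FPKM values per gene, fragments divided by gene length and by the library total; no further scaling is stated. The submitters' processing notes name HISAT2, HTSeq, R 3.2.0, DESeq2 and mm10 without their roles, and the counting settings and annotation are not given in the sources used here. Samples were grouped by their labels. The members and all gene lists were chosen with earlier results of these data known.

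Genes averaging 1 FPKM or more over the libraries were fitted with limma 3.58.1 (R 4.3.3) on log2(FPKM + 1), a pseudocount of 1, with a trend and Benjamini-Hochberg adjustment over all 10551 genes. Calls needed an adjusted p of at most 0.05. Counts at a fold of at least 2 under the alternatives used an unadjusted p of at most 0.05 instead. Replicates are separate samples, each of pooled mice, and p-values measure the spread between them. It is not stated whether the samples of a group came from different mice, so this spread may not be that between animals. The members were part of this fit, which gave their log2 fold changes and SE, but no p or call is given for them, because they were chosen on this contrast. Genes named singly were all members and their relatives, the receptors for interleukins 22, 6 and 17 with Stat3 and Socs3, in each list the 3 called genes that rose and the 3 that fell most, and the 5 nearest to Reg3b. Cell markers and genes near 0 were named as examples after their values were seen.

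Fragments were computed from the steps of the FPKM values, which were whole multiples of 1 fragment within 0.02 for all 21397 genes. This fixes a gene's fragments only up to a factor that its 6 libraries have in common, and the smallest solution was taken. When known fragments were simulated for both groups, 254 of 15895 genes with at least 10 fragments (1.60%) came out too low, all of them with such a factor, and the library totals were recovered. The lengths implied for the members differed from an annotated transcript by at most 4.86% (Saa3), so no factor was seen in them, but S100g came out at 160 bases against 480 annotated, so its fragments are too low and are not printed. For Saa3, with 5 fragments, the steps alone do not settle this.

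Alternatives were upper-quartile and median-ratio scaling, a pseudocount of 0.1, no filter, a replicate block, leaving out each library and, added after seeing the data, limma-voom on the computed fragments with at least 10 fragments. Promoters came from RefSeq and positions from GENCODE vM21. The scripts were tested on simulated data.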

Additional observations from a re-analysis of the deposited data

How the results depend on the processing

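The 4 members that were lower stayed lower in all 12 alternatives, with log2 fold changes of −5.57 to −5.01 for Reg3b, −3.21 to −2.97 for Reg3a, −2.38 to −2.22 for Reg3g and −2.82 to −1.24 for Reg1, and Reg4 stayed higher at 0.92 to 1.12. Upper-quartile scaling moved the median of all genes from 0.13 to −0.0045. Genes higher at a fold of at least 2 were counted here at an unadjusted p of at most 0.05 (limma). They numbered 358, and 223 with upper-quartile scaling, 228 with median-ratio scaling and 676 with a pseudocount of 0.1. Limma-voom on fragments gave 1751, and leaving out 1 library gave 329 to 426. Genes lower at that fold and p numbered 385, and 490, 484, 486 and 1144 in the same order of settings. With 1 library left out they numbered 366 to 399. The pseudocount of 1 FPKM compresses the fold of low genes, and the offset that limma-voom adds is on the scale of fragments and smaller. Limma-voom also had another filter and tested 15898 genes against 10551. The parts of the offset and the filter in its counts were not separated. Socs3 turned to −0.04 with upper-quartile and −0.030 with median-ratio scaling. Il6st ranged from −0.056 to 0.020 with 1 library left out and was above 0 without Control replicate 2 (0.0071) and without MMK-1 replicate 2 (0.020).

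No pairing by replicate number was seen: deviations of same-numbered libraries correlated at 0.025, −0.040 and 0.028, and those of unlike-numbered libraries at −0.056 to 0.063. Whether samples shared mice or a batch was not tested. With the replicate block 359 genes were called higher and 385 lower at a fold of at least 2, 17 pathway genes were higher and 25 lower, and Il22ra1 was −0.13 with an adjusted p of 0.075. Depth limits Saa3 and, with MMK-1, Reg3d to at most 3 fragments in a library, and Reg1 with MMK-1 to 5 to 17 fragments. Limma-voom shares the limit of the computed fragments, which are too low for genes such as S100g.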
